A study of Homo sapiens with 8 samples.

Results

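Hemidesmosomes are the junctions that rivet epithelial cells, among them the basal cells of the breast epithelium, to the basement membrane beneath them. At their core the integrin subunits encoded by ITGA6 and ITGB4 form a receptor for laminins, the tail of ITGB4 is held inside the cell by plectin (PLEC), and the transmembrane collagen COL17A1 and the plakin encoded by DST complete the link to keratin filaments. CD151 is a tetraspanin, a membrane protein that gathers laminin-binding integrins into clusters. These 6 genes were chosen by name, as ITGB4 and its junction partners, from 58336 Ensembl gene rows. Each symbol matched 1 row, and all 6 were among the 15220 genes that could be tested.

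RNA sequencing of polyadenylated RNA gave 8 libraries. All derive from SUM159 (Sum159 in the labels), an established cell line from a human breast carcinoma that lacks hormone receptors and HER2 and has many mesenchymal features. The ITGB4-high group (genotype label ITGB4 high, 2 libraries) and the ITGB4-low group (genotype label ITGB4 low, 3 libraries) came from cells grown in dishes. The lung-recovered group (3 libraries) came from ITGB4-low clone 1 cells that were put into mice by tail vein. Bleomycin, a drug that breaks DNA and inflames the lung, was given to the mice through the trachea, and tumour cells carrying tdTomato were sorted after the lungs were dissociated and the suspension was cultured overnight. All ITGB4-low cells were 1 clone, so the traits of that clone cannot be told apart from the ITGB4-low state. No lung library without bleomycin was analysed here, so the drug, the stay in the lung and the recovery procedure cannot be told apart. Library totals ran from 20.41 to 27.22 M counts. Titles number the libraries as biological replicates but name no cultures or animals, so the p-values measure the spread between these libraries, which may be technical.

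The line's mesenchymal markers were high in every library: VIM, FN1, CDH2, ZEB1 and AXL together took 6858 to 7289 CPM (counts per 1e6 scaled counts) in ITGB4-high, 10702 to 10908 in ITGB4-low and 7541 to 8113 in lung-recovered libraries. The 10 lung epithelium markers were near zero: their summed level was 0.717 to 1.17 CPM in ITGB4-high, 1.60 to 2.05 in ITGB4-low and 0.709 to 1.22 in lung-recovered libraries. The list held no marker of lung basal cells, which also build hemidesmosomes. Levels of the basal-cell genes KRT5, KRT14 and TP63 are given below. In the lung-recovered libraries SFTPA1, SFTPD, SCGB1A1, FOXJ1 and CDH1 had 0 counts, and SFTPC and SFTPB had 1 count each over the group. The other list members there were AGER (25, 15 and 16 counts), NKX2-1 (3, 0 and 2) and EPCAM (1, 0 and 1). NKX2-1 had 20, 25 and 24 counts in the ITGB4-low libraries. CDH1, the epithelial cadherin, was at 0 counts in all 8 libraries. The 8 macrophage and myeloid markers summed to 6.55 to 7.41 CPM in lung-recovered, 5.59 to 6.12 in ITGB4-low and 3.23 to 4.04 in ITGB4-high libraries. Among them CD68 was the highest, at means of 4.93, 4.19 and 2.72 CPM in that order. PTPRC had 14, 22 and 19 counts in lung-recovered, 20, 14 and 24 in ITGB4-low and 0 in ITGB4-high libraries. The 6 endothelial markers summed to at most 3.40 CPM in lung-recovered libraries, with CLDN5 and VWF at 0 counts. KDR had 63, 48 and 63 counts there, PECAM1 3, 17 and 5, TEK 6, 6 and 5, and CDH5 0, 1 and 0. The lungs were those of mice, while reads were aligned to the human build hg38. These levels of human genes therefore cannot gauge how many mouse lung cells were carried over. The part of other cells in the results below was not tested.

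The members lie on separate chromosomes of hg38. ITGB4 (ENSG00000132470) occupies chromosome 17, 75721328 to 75757818, and ITGA6 (ENSG00000091409) chromosome 2, 172427354 to 172506282, both on the plus strand. DST (ENSG00000151914) occupies chromosome 6, 56457987 to 56954628, and COL17A1 (ENSG00000065618) chromosome 10, 104031286 to 104085957, both on the minus strand. CD151 (ENSG00000177697) occupies chromosome 11, 832843 to 839831, on the plus strand. The counts are per gene, so the 35 annotated transcripts of DST, of which the epithelial form is the hemidesmosome plakin, cannot be separated here, nor can the splice forms of ITGA6. POLR2L lies antisense to CD151 and shares 257 exon bases with it, 6.53% of the CD151 exon length. The library kit kept strand, but whether the counting used it is not given here.

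Upstream sequence is shown for ITGA6 and COL17A1, the partners of ITGB4 that were lower along with it in ITGB4-low cells, and for DST, whose mean there was higher. RefSeq (GRCh38.p14) entries were used for these 3 of the 6 members, and no sequence is shown for ITGB4, PLEC or CD151. Each line below gives bases before a start, 5′ to 3′ on the gene's strand, and capitals mark matches to CACCTG, the letters of the E-box bound by ZEB and SNAI repressors. The search covered both strands, so its reverse complement counted too. The ITGA6 stretch is chr2:172427086-172427335 (plus strand), that of COL17A1 is chr10:104085958-104086130 (minus strand) and that of DST, from its outermost start, is chr6:56954831-56955080 (minus strand). The COL17A1 stretch stops 77 bases short of the RefSeq start, where annotated exon begins.
ITGA6: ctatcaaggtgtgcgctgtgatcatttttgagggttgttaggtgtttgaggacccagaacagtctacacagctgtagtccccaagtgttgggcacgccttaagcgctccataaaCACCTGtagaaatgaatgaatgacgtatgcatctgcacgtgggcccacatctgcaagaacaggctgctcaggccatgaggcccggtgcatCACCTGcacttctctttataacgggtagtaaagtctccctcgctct
COL17A1: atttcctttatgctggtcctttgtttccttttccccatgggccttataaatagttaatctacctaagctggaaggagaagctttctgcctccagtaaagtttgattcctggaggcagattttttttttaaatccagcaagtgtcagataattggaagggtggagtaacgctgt
DST: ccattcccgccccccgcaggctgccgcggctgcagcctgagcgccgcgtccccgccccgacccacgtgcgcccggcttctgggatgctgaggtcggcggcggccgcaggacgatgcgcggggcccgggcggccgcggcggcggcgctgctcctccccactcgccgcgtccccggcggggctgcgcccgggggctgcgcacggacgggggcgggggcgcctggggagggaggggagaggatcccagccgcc

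The ITGA6 stretch held 2 matches to CACCTG, beginning 136 and 46 bases before the start. Of 35116 RefSeq windows of 250 bases, 17.5% held at least 1 match on either strand and 2.53% held 2 or more. Neither the COL17A1 nor the DST window of 250 bases held these letters. AP-1 letters (TGANTCA, the same on both strands) were in 6.57% of all windows and in none of these 3. The GC box (GGGCGG, or CCGCCC on the other strand), found in 42.6% of windows, occurred 4 times in the DST stretch, whose GC content was 82.8%, against 50.8% for ITGA6 and 40.5% for COL17A1. The stretches before the DST starts numbered 2 and 3, farther inside the gene, held 0 GC boxes. Their GC content was 43.1% and 40.6%, so the values of the outermost start do not hold for every DST start. Which start gives the epithelial form was not tested. A match is a description of the letters and says nothing of binding.

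ITGB4 stood at 419.9 and 376 CPM in the ITGB4-high libraries, at 5.29, 7.46 and 9.13 CPM in the ITGB4-low libraries and at 401, 376 and 407 CPM in the lung-recovered libraries. The ITGB4-low libraries lay far below all others, and the ITGB4-high and lung-recovered libraries overlapped. The gene checks the group labels in the dish-grown cells. The lung-recovered cells, labelled ITGB4 low from the cells put into the mice, did not carry a low level. In these bulk libraries a change in the share of ITGB4-expressing cells and a change in RNA per cell cannot be told apart.

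Measured per kilobase of exon and ranked among 12475 protein-coding genes, ITGB4 went from the 94.9th percentile in ITGB4-high to the 19.2nd in ITGB4-low and the 94.7th in lung-recovered cells. Its log2 fold change was -5.75 in ITGB4-low against ITGB4-high (SE 0.10, 95% interval -5.96 to -5.54, edgeR adjusted p = 3.18e-19) and 5.74 in lung-recovered against ITGB4-low (SE 0.10, 5.54 to 5.94, adjusted p = 3.54e-19). By size of fold change these ranked 98 and 35 among the 15220 genes. Lung-recovered against ITGB4-high cells gave -0.01 (95% interval -0.17 to 0.14, adjusted p = 0.903). The interval bounds that difference to at most 0.17 on the log2 scale in either direction, with 2 and 3 libraries.

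**Figure D1:**
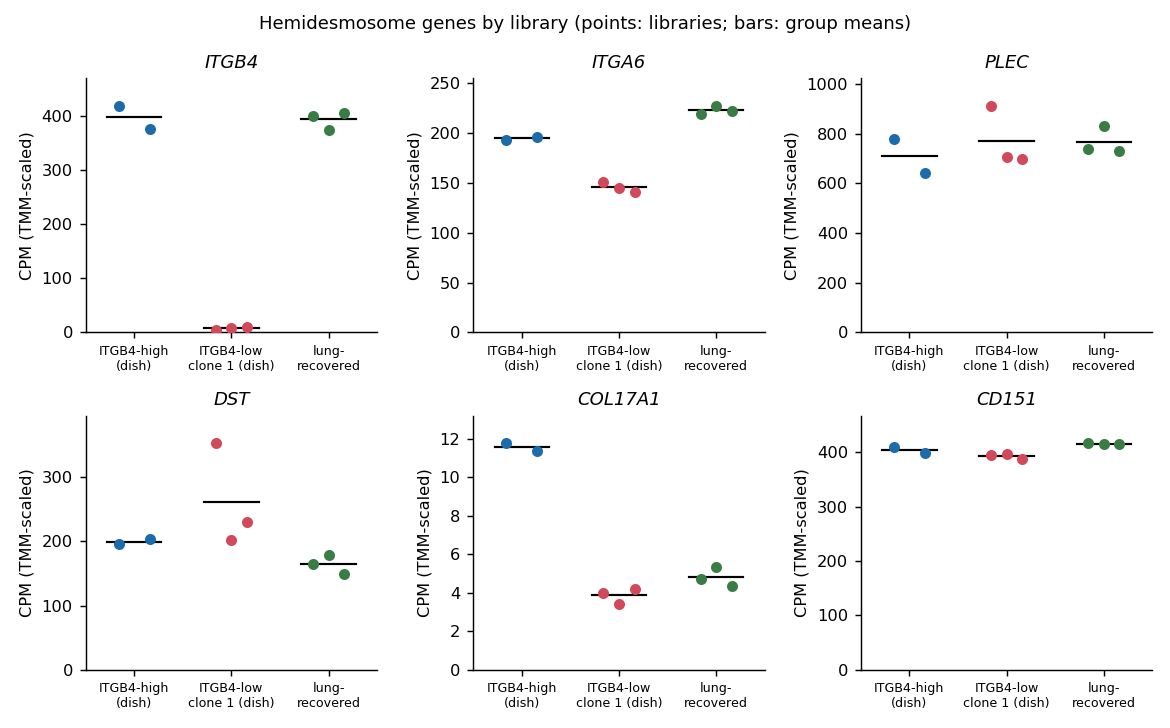
Level of each of the 6 genes in CPM (TMM-scaled, linear axes from 0), with 1 point per library and a bar at the group mean, for 2 ITGB4-high, 3 ITGB4-low and 3 lung-recovered libraries. ITGB4 and ITGA6 are lowest in ITGB4-low, COL17A1 is near 11.6 CPM only in ITGB4-high, 1 ITGB4-low library stands high for DST, and CD151 and PLEC differ little between groups.

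ITGA6, the only alpha subunit that ITGB4 is known to pair with, moved the same way by much less. It was at 193 and 196 CPM in ITGB4-high, at 151, 144 and 141 CPM in ITGB4-low, and 219, 227 and 222 CPM in lung-recovered libraries. No 2 groups overlapped, and the lung-recovered libraries were the highest. The fall in ITGB4-low was -0.42 on the log2 scale (SE 0.05, edgeR adjusted p = 1.87e-07) and the rise in lung-recovered cells 0.62 (SE 0.04, adjusted p = 5.29e-10). Lung-recovered cells exceeded ITGB4-high cells by 0.19 (SE 0.05, adjusted p = 0.00144), a ratio of 1.14.

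The balance of the 2 subunits changed sides between groups. Per kilobase of exon, ITGB4 RNA was 2.10 and 1.85 times ITGA6 RNA in the ITGB4-high libraries. In the ITGB4-low libraries ITGA6 was the more abundant, and ITGB4 stood at only 0.0339, 0.0499 and 0.0626 times ITGA6. In the lung-recovered libraries ITGB4 again exceeded ITGA6, by factors of 1.77, 1.60 and 1.77, each below both ITGB4-high values. The mean log2 ratio was 0.98 ± 0.13 (SD, n = 2) in ITGB4-high, -4.40 ± 0.45 (n = 3) in ITGB4-low and 0.77 ± 0.09 (n = 3) in lung-recovered libraries.

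By a two-sided exact permutation test over libraries, the ratio in lung-recovered against ITGB4-low had p = 0.1, the smallest that 3 against 3 libraries allow. Each comparison with the 2 ITGB4-high libraries had an exact permutation p = 0.2, again the smallest possible, so these tests could not reach 0.05. The lung-recovered ratio lay 0.21 below the ITGB4-high ratio on the log2 scale. These levels set counts against annotated exon length (6761 bases for ITGB4, 6533 for ITGA6) and are RNA levels, not receptor on the cell surface.

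**Figure D2:**
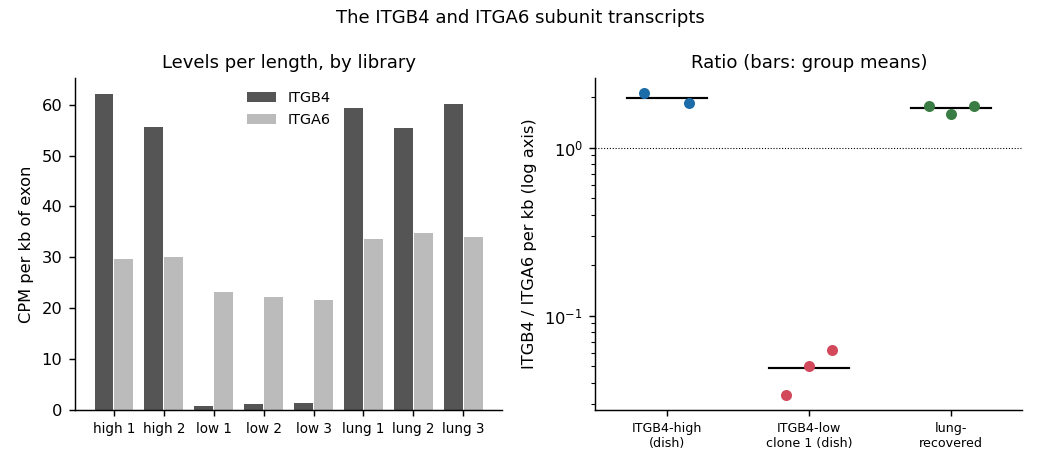
Left, ITGB4 (dark) and ITGA6 (light) in CPM per kilobase of exon for each of the 8 libraries; right, the ratio of ITGB4 to ITGA6 on a log axis, with points for libraries, bars for group means and a dotted line at equality. ITGA6 varies between 21.6 and 34.8 CPM per kb while ITGB4 runs from 0.783 to 62.1, so the ratio is below 1 only in the 3 ITGB4-low libraries.

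COL17A1, the transmembrane collagen of the junction, was at 11.8 and 11.3 CPM in ITGB4-high, at 3.98, 3.42 and 4.18 CPM in ITGB4-low, and 4.71, 5.34 and 4.36 CPM in lung-recovered libraries. Both clone 1 groups lay far below ITGB4-high, and the lung-recovered libraries lay just above ITGB4-low without overlap. The log2 fold change in ITGB4-low against ITGB4-high was -1.58 (SE 0.13, edgeR adjusted p = 2.96e-09). Lung-recovered against ITGB4-low gave 0.30 (95% interval 0.02 to 0.58, adjusted p = 0.0994), which did not pass. Lung-recovered cells stayed below ITGB4-high by -1.27 (SE 0.12, adjusted p = 4.94e-08). As a share of the ITGB4-high mean, the lung-recovered level was 41.6% for COL17A1, against 99.1% for ITGB4 and 114% for ITGA6. COL17A1 rested on 73 to 104 counts in each ITGB4-low library and 112 to 116 in each lung-recovered library, far fewer than the other members outside ITGB4-low.

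DST, the plakin gene, was at 196 and 203 CPM in ITGB4-high, at 353, 202 and 229.8 CPM in ITGB4-low, and 164, 178 and 149 CPM in lung-recovered libraries. ITGB4-low replicate 1 stood well above the rest, and ITGB4-low overlapped ITGB4-high. The log2 fold change in ITGB4-low against ITGB4-high was 0.39 (SE 0.14, edgeR adjusted p = 0.0230) and without that library it was 0.12 (adjusted p = 0.125), which ended the call. The call also ended without ITGB4-high replicate 1 (0.36, adjusted p = 0.139), without ITGB4-high replicate 2 (0.41, adjusted p = 0.0874) and with DESeq2 (0.39, adjusted p = 0.260), where the fold change stayed about as large. In lung-recovered against ITGB4-low cells DST fell by 0.67 on the log2 scale (SE 0.13, adjusted p = 0.00033), and without the same library by 0.40. Lung-recovered against ITGB4-high gave -0.28 (95% interval -0.58 to 0.01, adjusted p = 0.0995), although the libraries did not overlap. Without ITGB4-low replicate 1, which is in neither group of that comparison but shares its fit, the fold change was again -0.28 and passed (adjusted p = 0.000308).

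The ITGB4-low replicate 1 library also stood apart for other long transcripts. The 582 tested genes whose longest annotated transcript reaches 10 kb include DST and PLEC. Over these genes the median log2 level of replicate 1 was 0.11 above the mean of the other ITGB4-low libraries, against -0.01 over all genes. Its DST level was 0.71 above and its PLEC level 0.38 above. The same median for long genes lay between -0.08 and 0.03 in the other 7 libraries. Each library was set against the others of its group. The values of the other ITGB4-low libraries therefore depend on replicate 1, and those of the ITGB4-high pair mirror each other. Its part in the DST result was tested only by leaving that library out.

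PLEC (ENSG00000178209; hg38 chromosome 8, 143915147 to 143976734, minus strand), which encodes the cytolinker that docks on the tail of ITGB4, was at 780.0 and 641 CPM in ITGB4-high, at 913, 704 and 697 CPM in ITGB4-low, and 737, 832 and 729 CPM in lung-recovered libraries. All 3 groups overlapped. Its log2 fold changes were 0.12 (95% interval -0.08 to 0.32) in ITGB4-low against ITGB4-high, -0.01 (-0.19 to 0.17) in lung-recovered against ITGB4-low and 0.11 (-0.09 to 0.31) in lung-recovered against ITGB4-high, with edgeR adjusted p of 0.302, 0.949 and 0.361. PLEC is also used at focal adhesions and on vimentin filaments.

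CD151, the tetraspanin, was at 409.6 and 399 CPM in ITGB4-high, at 396, 397 and 388 CPM in ITGB4-low, and 417, 415 and 415 CPM in lung-recovered libraries. The groups did not overlap, yet the means differed by only a few percent: ITGB4-low stood at 97.5% and lung-recovered at 103% of the ITGB4-high mean. No comparison passed (edgeR adjusted p = 0.485, 0.136 and 0.441). On the log2 scale the 95% intervals were -0.13 to 0.05 in ITGB4-low against ITGB4-high, -0.0018 to 0.16 in lung-recovered against ITGB4-low and -0.05 to 0.13 in lung-recovered against ITGB4-high.

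Counted over the 6 members, 3 were lower and 1 higher in ITGB4-low than in ITGB4-high cells, where 27.6% of all tested genes were lower, 28.6% higher and 56.2% called in either direction. ITGB4, by which the dish-grown groups are labelled, is among the 3 lower, with ITGA6 and COL17A1. Its fall there restates the labels and also enters the median of the members below. In lung-recovered against ITGB4-low cells 2 rose and 1 fell, against 14.7% and 15.4% of all genes, or 30.1% called in either direction. In lung-recovered against ITGB4-high cells 1 was higher and 1 lower, against 26.2% and 25.0%, or 51.2% in either direction. By library values, groups were fully separate for 4, 5 and 4 of the 6 members in these comparisons, and for 68.7%, 43.3% and 66.8% of all genes. The median absolute log2 fold change of the members was 0.41, 0.46 and 0.15 in these 3 comparisons, and that of all genes was 0.30, 0.15 and 0.27. The comparisons share groups pairwise and so are not independent of each other.

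**Figure D3:**
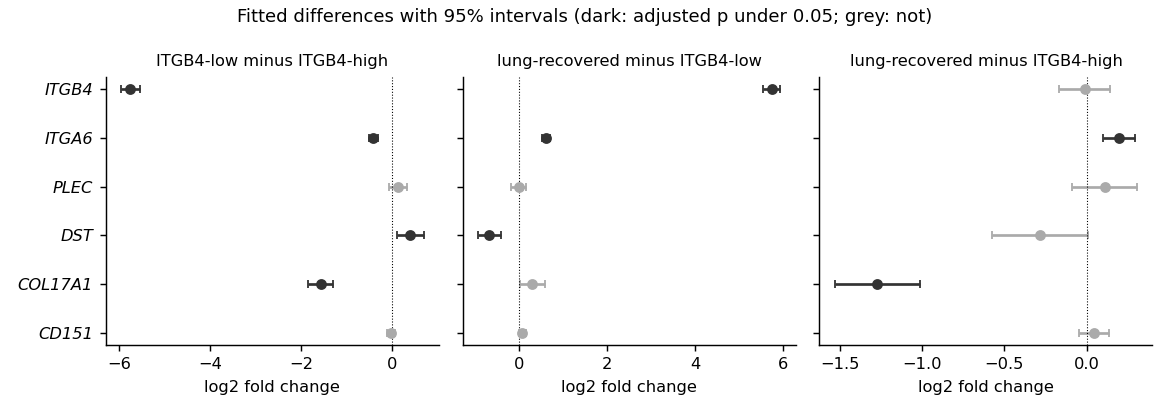
Fitted log2 fold change of each member with its 95% interval in the 3 comparisons, dark where the edgeR adjusted p was under 0.05 and grey where it was not; the horizontal scales differ between panels. ITGB4 stands at -5.75 and 5.74 in the comparisons with ITGB4-low and at -0.01 between lung-recovered and ITGB4-high, where COL17A1 (-1.27) lies farthest from 0.

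Set against each other per kilobase of exon, the members kept the same order in ITGB4-high and lung-recovered cells. In ITGB4-high the mean levels per kilobase were 103 CPM for CD151, 58.9 for ITGB4, 41.8 for PLEC, 29.8 for ITGA6, 4.71 for DST and 1.64 for COL17A1. In lung-recovered cells they were 106, 58.4, 45.1, 34.1, 3.87 and 0.680 CPM per kilobase in that order. In ITGB4-low cells ITGB4 dropped to the fifth place, with 1.08 CPM per kilobase, below DST at 6.18 and above COL17A1 at 0.547. Neighbours in each order did not overlap between libraries, and the order was the same with the longest transcript as the length. The exon union of DST (42341 bases) counts every isoform, so its level per kilobase is understated.

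ITGB4 made up 24.6% of the 6 members' summed level per kilobase in ITGB4-high, 0.622% in ITGB4-low and 23.6% in lung-recovered cells. The sum itself was 231 to 248 CPM per kilobase in ITGB4-high, 169 to 187 in ITGB4-low and 247 to 249.7 in lung-recovered libraries.

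The genes around the junction were read from 10 lists of ligands, other receptors, filaments and regulators. Of 91 genes 73 were tested. In ITGB4-low against ITGB4-high 22 were higher and 34 lower, where 28.6% and 27.6% of all tested genes were, and the median log2 fold change was -0.08 (0.00090 over all genes). In lung-recovered against ITGB4-low cells 28 rose and 14 fell, against 14.7% and 15.4% of all genes, with a median of 0.09 (0.00031 over all genes). Between lung-recovered and ITGB4-high cells 28 were higher and 21 lower, against 26.2% and 25.0% of all genes, with a median of 0.04 (0.0051 over all genes). The same shares of all genes stand behind the count of each list that follows.

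Among the laminin chains, the ligands, 4 of 7 were lower and 2 higher in ITGB4-low than in ITGB4-high, and 4 rose and 1 fell in lung-recovered against ITGB4-low cells. The median log2 fold changes were -0.32 and 0.22.

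LAMB3, a beta chain found in the laminin of hemidesmosomes, was at 68.6 and 63.4 CPM in ITGB4-high, at 57.2, 50.7 and 51.0 CPM in ITGB4-low and 273, 263 and 283 CPM in lung-recovered libraries. It was slightly lower in ITGB4-low (-0.32, SE 0.06), and the lung-recovered libraries were far above both dish-grown groups (2.37 against ITGB4-low, SE 0.05, and 2.05 against ITGB4-high, SE 0.06). LAMA3, an alpha chain of the same laminin, went the other way in the dish, at 22.3, 17.9 and 19.7 CPM in ITGB4-low against 14.3 and 14.4 CPM in ITGB4-high (0.47, SE 0.10), and did not pass between lung-recovered and ITGB4-low cells (adjusted p = 0.661). LAMA5 fell (-0.71) and then rose (0.96), while LAMB2 rose (0.34) and then fell (-0.48).

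The other laminin- and collagen-binding integrin subunits split. In ITGB4-low 3 of 5 were higher and 2 lower, with a median of 0.18, and in lung-recovered against ITGB4-low cells 2 rose and 3 fell, with a median of -0.21. ITGB1, the other beta partner of ITGA6, was at 587 ± 6.59 CPM (SD, n = 3) in ITGB4-low, 518 ± 12.6 (n = 2) in ITGB4-high and 508 ± 2.96 (n = 3) in lung-recovered cells. It rose by 0.18 and fell by 0.21 on the log2 scale. ITGA2, a collagen receptor, fell (-1.58, SE 0.05) and rose (1.28, SE 0.05), and ITGA3, a laminin receptor that pairs with ITGB1, fell (-0.61). The rise of ITGA3 in lung-recovered cells was 0.14 (edgeR adjusted p = 0.0153) and did not pass without ITGB4-low replicate 2 or 3 or lung-recovered replicate 3.

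Keratins are the filaments that hemidesmosomal plakins hold. Of 9 tested filament genes 5 were lower and 2 higher in ITGB4-low, with a median of -2.74, and 7 rose and 0 fell in lung-recovered against ITGB4-low cells, with a median of 3.01. KRT5, a keratin of basal cells, stood at 1.40 and 1.68 CPM in ITGB4-high libraries, did not exceed 0.328 CPM in any ITGB4-low library, and reached 40.4, 46.9 and 39.5 CPM in lung-recovered libraries. Its lung-recovered level exceeded that of ITGB4-high by 4.78 on the log2 scale (SE 0.14), unlike ITGB4, whose levels overlapped. KRT14, its partner, was at 2.38 ± 0.434 CPM (n = 2), 0.104 ± 0.0147 (n = 3) and 6.37 ± 1.03 (n = 3) in the same order. KRT6A, of the same list, was at 12.7 ± 0.493, 0.737 ± 0.0570 and 5.94 ± 0.999 CPM. Its lung-recovered level stayed below ITGB4-high (-1.10, SE 0.13, edgeR adjusted p = 5.75e-07). Over the 9 tested genes, 6 were higher and 2 lower in lung-recovered than in ITGB4-high cells. KRT15, another keratin of basal cells, went the other way in the dish: it was at 0.155 ± 0.166 CPM in ITGB4-high, 1.44 ± 0.505 in ITGB4-low and 1.28 ± 0.293 in lung-recovered cells. It was higher in ITGB4-low than in ITGB4-high (3.16, SE 0.53, edgeR adjusted p = 4.44e-05) and did not pass between lung-recovered and ITGB4-low cells (-0.13, adjusted p = 0.797). KRT8, a keratin of simple epithelia, rose at each step from 81.3 to 161 and 194 CPM.

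Of the other plakins, 3 of 5 were tested, and 2 of these were lower in ITGB4-low, with a median of -1.81. DSP, the desmosome plakin, was at 39.5 ± 0.880 CPM (n = 2) in ITGB4-high, 11.3 ± 0.519 (n = 3) in ITGB4-low and 75.2 ± 2.64 (n = 3) in lung-recovered cells. PPL, periplakin, had 104 and 105 counts in the ITGB4-high libraries, 0, 2 and 2 in ITGB4-low and 1, 0 and 0 in lung-recovered libraries, so like COL17A1 it was not back at its ITGB4-high level. MACF1, a long plakin related to DST, did not pass (adjusted p = 0.154 and 0.0705). It varied most in ITGB4-low (229 ± 62.1 CPM, against 197 ± 0.987 in ITGB4-high).

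**Figure D4:**
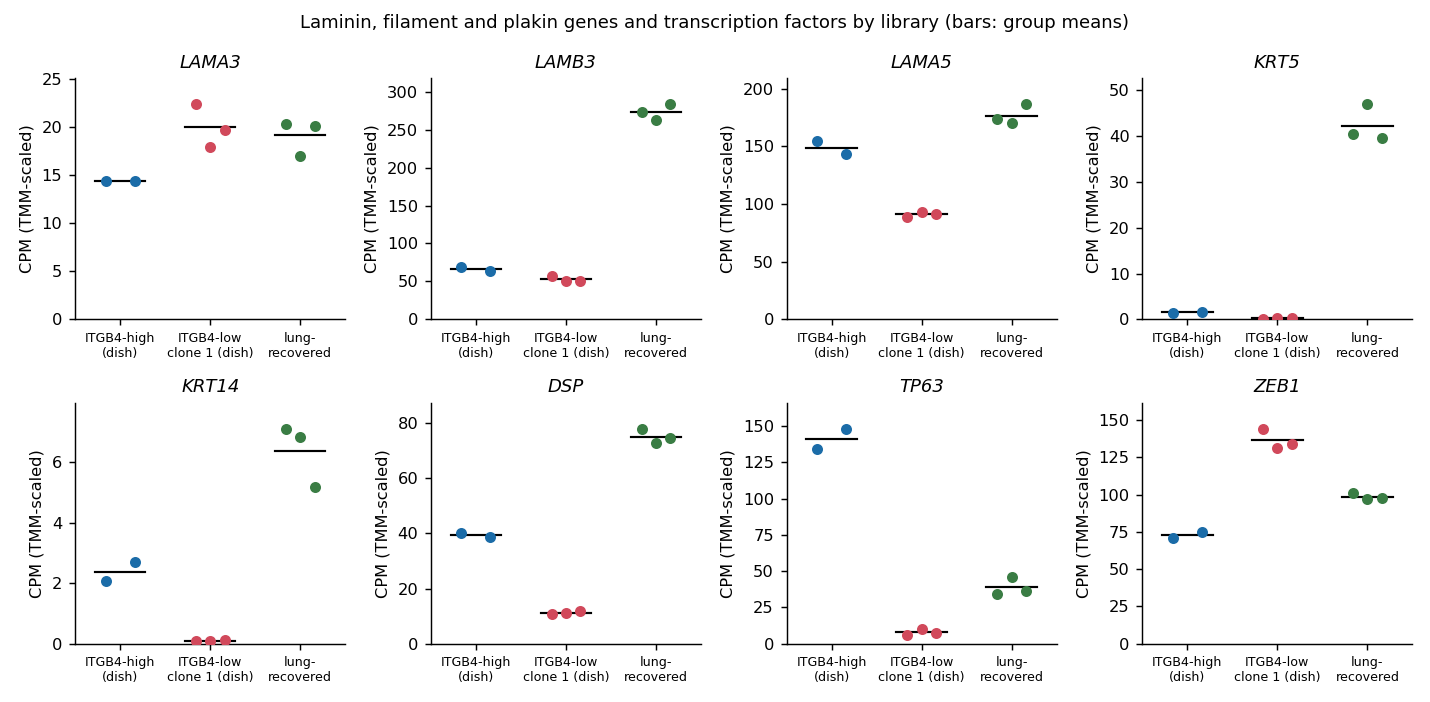
CPM (TMM-scaled, linear axes from 0) of 8 genes around the junction, with 1 point per library and bars at group means. LAMA5, KRT14 and DSP are lowest in ITGB4-low, LAMB3 and KRT5 are high only in lung-recovered cells, TP63 is highest in ITGB4-high and ZEB1 is highest in ITGB4-low.

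Of 13 tested tetraspanins other than CD151, 5 were lower and 3 higher in ITGB4-low, near the 27.6% and 28.6% of all genes, with a median of 0.0017, and 5 rose and 1 fell in lung-recovered against ITGB4-low cells, with a median of 0.11. CD82, which restrains cell motility, fell from 117 ± 1.41 to 46.3 ± 1.31 CPM and stood at 92.6 ± 1.91 in lung-recovered cells (n = 2, 3 and 3). CD9 was higher in ITGB4-low (0.64, SE 0.07) and higher again in lung-recovered cells (0.34, SE 0.06). CD81 was at 244, 244 and 250.2 CPM in ITGB4-high, ITGB4-low and lung-recovered cells and did not pass.

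Of 8 tested basement membrane and anchoring genes 6 were lower and 2 higher in ITGB4-low (median -0.30), and 4 rose and 2 fell in lung-recovered against ITGB4-low cells (median 0.11). COL7A1, the anchoring fibril collagen beneath hemidesmosomes, was lower in ITGB4-low (-0.57, SE 0.09). HSPG2, the proteoglycan perlecan, rose from 359 to 643 CPM and fell to 331.8 CPM. COL13A1, the one other transmembrane collagen tested, was at 0.248 CPM in ITGB4-high, 8.45 in ITGB4-low and 3.28 in lung-recovered cells, the opposite of COL17A1 in the dish. Of the sheddases, which release membrane proteins such as collagen XVII, 2 of 3 were higher in ITGB4-low, ADAM9 by 0.29 and ADAM17 by 0.23.

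Among 17 tested kinases, receptors and adaptors tied to ITGB4 signalling, 4 were higher and 7 lower in ITGB4-low (median -0.08), and 3 rose and 3 fell in lung-recovered against ITGB4-low cells (median 0.03). The receptor gene MET was lower in ITGB4-low (-0.31) and EGFR higher (0.54). EGFR fell in lung-recovered cells (-0.38). SRC was at 66.1 CPM in ITGB4-high, 43.1 in ITGB4-low and 40.3 in lung-recovered cells, so its level did not follow that of ITGB4. Of 7 tested transcription factors 3 were higher and 3 lower in ITGB4-low (median 0.03), and 2 rose and 2 fell in lung-recovered cells (median 0.13). TP63, the basal-cell master factor, was at 141 ± 9.91 CPM (n = 2), 7.93 ± 1.92 (n = 3) and 38.8 ± 6.32 (n = 3) in ITGB4-high, ITGB4-low and lung-recovered cells. Its lung-recovered level remained below ITGB4-high by -1.87 (SE 0.10). ZEB1, a repressor of epithelial genes, was at 72.9 ± 3.06, 136 ± 6.92 and 98.7 ± 2.20 CPM in the same order. SNAI1, a repressor that binds the same E-box letters, went the opposite way, at 2.19 ± 0.0503, 0.842 ± 0.278 and 3.08 ± 0.0810 CPM (-1.40, SE 0.26, and 1.89, SE 0.23, with edgeR adjusted p of 0.000131 and 2.18e-06).

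Over all 8 libraries, the profiles most like that of ITGB4 were found among 9558 other protein-coding genes whose mean reached 10 CPM in some group. Likeness was the root mean square difference of log2 levels after centring each gene. The nearest was MDFI, with a difference of 0.32 and levels of 17.5, 0.272 and 12.8 CPM in ITGB4-high, ITGB4-low and lung-recovered cells. CSF3 (0.54), EPGN (0.60), KRT75 (0.73), JAG2 (0.78), SGPP2 (1.05), ARHGEF16 (1.06), SLC2A9 (1.09) and SYTL1 (1.18) followed. COL17A1 ranked 186 (difference 2.47) and ITGA6 ranked 312 (2.56) by the same measure. CD151, PLEC and DST ranked 3799 (2.79), 6174 (2.85) and 9061 (3.09). Each of these differences exceeded the 1.18 of SYTL1. Those of COL17A1 and ITGA6 were near that of CD151, which passed in no comparison, so their ranks do not mark profiles close to that of ITGB4. The profiles nearest to COL17A1 were those of ZNF74 (0.12), GAL (0.13), ADAMTS9 (0.13), ZMAT3 (0.15) and ST6GAL1 (0.15), each at its highest in ITGB4-high. These genes were picked for their likeness, which is therefore a description.

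The members' genomic surroundings were compared over protein-coding genes within 250 kb. Around ITGB4, 16 genes were tested. In ITGB4-low against ITGB4-high 10 were lower and 2 higher (median -0.25), against 27.6% and 28.6% of all genes, and in lung-recovered against ITGB4-high 11 were lower and 1 higher (median -0.26), against 25.0% and 26.2%. In lung-recovered against ITGB4-low cells 5 rose and 1 fell, against 14.7% and 15.4% of all genes. The log2 fold changes of the 16 ran from -0.31 to 3.06 with a median of 0.06. GALK1, whose gene body overlaps that of ITGB4 on the other strand without sharing exon bases, went the opposite way: it was higher in ITGB4-low (0.36) and lower in lung-recovered cells (-0.31). LLGL2, a polarity gene 146120 bases from ITGB4, moved as ITGB4 did, from 4.10 to 0.147 and 1.29 CPM (-4.73, SE 0.37, and 3.06, SE 0.44). UNC13D, 69407 bases away, was higher in ITGB4-low (1.02, SE 0.22).

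In lung-recovered against ITGB4-low cells 14 of the 16 tested neighbours of CD151 rose and 0 fell, against 14.7% and 15.4% of all tested genes. Their median was 0.35 and their range 0.14 to 0.98, while CD151 itself was at 0.08 and did not pass. The difference between CD151 and its neighbours was not tested, and the interval of CD151 reached 0.16, past the fold changes of PIDD1 (0.14) and AP2A2 (0.15). TSPAN4, another tetraspanin 2977 bases away, rose by 0.40 (SE 0.04), and POLR2L, the antisense partner, by 0.33 (SE 0.05). In ITGB4-low against ITGB4-high 9 of the 16 were lower and 2 higher, against 27.6% and 28.6% of all genes, and CD151, at -0.04, lay inside their range of -0.77 to 0.60. Against ITGB4-high, lung-recovered CD151 (0.04) also lay inside the range of its neighbours, -0.37 to 0.93. Around COL17A1, 6 of 8 neighbours rose in lung-recovered against ITGB4-low cells and 0 fell (14.7% and 15.4% of all genes), with a median of 0.47. SH3PXD2A, a scaffold of invadopodia there, went from 28.3 to 10.7 and 89.2 CPM. Around PLEC, FAM83H, a keratin-associated gene, went from 107 to 17.1 and 65.8 CPM while PLEC did not pass. Near DST the collagen gene COL21A1 was at 0.116 CPM in ITGB4-high and rose to 0.847 in ITGB4-low. The one tested neighbour of ITGA6, PDK1, was higher in ITGB4-low (0.43), opposite to ITGA6.

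**Figure D5:**
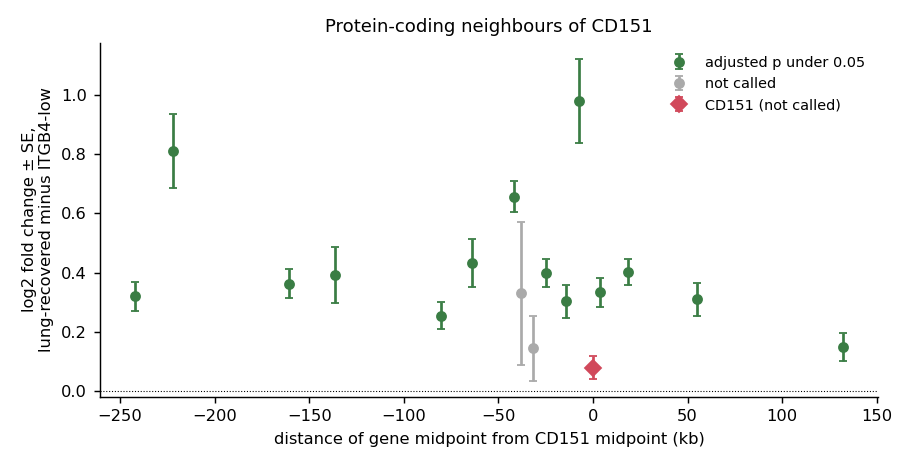
Log2 fold change with its SE in lung-recovered against ITGB4-low cells for the 16 tested protein-coding genes within 250 kb of CD151, by distance between gene midpoints in kb; green points had an edgeR adjusted p under 0.05, grey ones did not, and the red diamond is CD151. All neighbours lie above 0 and CD151, at 0.08, lies below every one of them.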

How the data were processed

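The deposited file holds raw read counts per Ensembl gene, 1 column per library, not normalised by the authors as far as the values show. Reads were aligned with STAR 2.7.1a to hg38, per the submitters' processing notes, while the sources used here name no counting program, strand setting or annotation release. Of 58336 rows, 58216 matched GENCODE 29, which gave symbols, coordinates and exon lengths. Titles gave each library its group and number. A single edgeR 4.0.16 fit (R 4.3.3) over all 8 libraries had a term per group: filterByExpr left 15220 genes, TMM factors ran from 0.975 to 1.01, and the quasi-likelihood F test was adjusted by Benjamini-Hochberg over all genes tested, with calls at 0.05. The SE is the fold change over the square root of F, and intervals are 95%. CPM uses TMM-scaled library sizes. The fit was tested on simulated data. Same-group libraries differed by more than counting error (chi-square over its degrees of freedom, 1.60 to 6.58), and each was kept as its own replicate. Totals of 20.41 to 27.22 M counts per library set the precision. Alternatives were DESeq2 1.42.0, limma-voom (limma 3.58.1), other scalings and filters, only the groups compared, a replicate block and leaving out each library. Named genes were the 6 members, the 2 largest called changes each way per list among genes of at least 1 CPM, the 10 profiles nearest ITGB4 (1 gene is not reported here) and 5 nearest COL17A1, and neighbours called at 2-fold or more. Further list members and neighbours (ITGB1, LAMA3, MACF1, CD81, MET, GALK1, TSPAN4, POLR2L, PIDD1, AP2A2 and PDK1 among them) were named after their values were seen. The members and lists were chosen with earlier results of these data known.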

Additional observations from a re-analysis of the deposited data

How the results depend on the processing

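Each member and comparison was refitted under 15 alternatives, of which 8 left out 1 library each. ITGB4 and ITGA6 kept their direction and call under all 15 in both comparisons with ITGB4-low, and so did COL17A1 in both comparisons with ITGB4-high. ITGA6 stayed higher in lung-recovered than in ITGB4-high cells under all 15 (adjusted p at most 0.0193). The unstable member was DST. Without it, the number of members higher in ITGB4-low than in ITGB4-high was 0 in place of 1 with DESeq2, and 0 to 1 as single libraries were left out. In lung-recovered against ITGB4-high cells DST was called lower with no filter on low counts and with only the 2 groups compared (adjusted p = 1.61e-07 and 0.000395), which made 2 members lower in place of 1; leaving out single libraries gave 1 to 2. The sign of PLEC, never called, turned to 0.0024 with the replicate block in lung-recovered against ITGB4-low cells. Over left-out libraries PLEC ran from -0.080 to 0.13 there, from -0.024 to 0.26 in ITGB4-low against ITGB4-high and from -0.034 to 0.25 in lung-recovered against ITGB4-high. That of ITGB4 in lung-recovered against ITGB4-high ran from -0.096 to 0.063. Where ITGB4-high kept 1 library, that library was assumed to vary like the other groups. The cause of these changes was not tested.

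Correlations gave no sign of pairing by replicate number: same-numbered libraries had deviations correlated by -0.07 to 0.04, others by -0.04 to 0.07. Deviations of the ITGB4-high pair are exact opposites, so their correlations mirror each other. The ranges are therefore not independent and cannot settle whether the numbers carry a pairing. With the replicate block 4069 genes were higher and 3921 lower in ITGB4-low against ITGB4-high (4347 and 4207 without it), and no member's call changed. The paired difference of the log2 ITGB4 to ITGA6 ratio was 5.18 in lung-recovered against ITGB4-low cells. It was -5.58 in ITGB4-low against ITGB4-high and -0.23 in lung-recovered against ITGB4-high. The unpaired differences of group means were 5.18, -5.38 and -0.21 in the same order. For the first, paired and unpaired values are equal by construction. The other paired values used only replicates 1 and 2. They differ from the unpaired values because replicate 3 was left out, not because of pairing. Over left-out libraries the unpaired differences ran from 4.94 to 5.38, -5.58 to -5.14 and -0.30 to -0.12. Other genes were refitted only in comparisons where the naming rules picked them, or where they were among the nearest profiles. Genes named only after their values were seen were not refitted. Of these 1995 refits, 1958 kept direction and side of the threshold, 37 lost the call and 0 turned. The rules took large called changes, which favours a kept call. Depth limits COL17A1 most, at 73 to 116 counts in clone 1 libraries.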
